A study of Homo sapiens with 6 samples.

Results

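The S100 proteins and annexins were measured in BCPAP cells, an established line of human papillary thyroid carcinoma, that carried a short hairpin RNA against CSF2. Members were the genes whose array symbol begins with S100 and a letter, or with ANXA and a number, and each gene was represented by the probe set (a group of probes for 1 transcript region) with the highest mean over the 6 arrays. This gave 38 of the 18132 genes on the array, measured by 79 probe sets. Of these, 20 were S100 genes and 12 were annexin genes. The other 6 carry a matching symbol without belonging to either family: the gene of the S100P-binding protein S100PBP, the annexin A2 receptor gene ANXA2R, the annexin A2 pseudogenes ANXA2P1, ANXA2P2 and ANXA2P3, and S100A7L2, listed as a pseudogene.

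Cells of the shCSF2 group (n = 3 arrays) received lentivirus with the hairpin against CSF2, which encodes the growth factor GM-CSF, and cells of the shCtrl group (n = 3 arrays) received lentivirus with a non-targeting hairpin. Both groups were selected with puromycin for 7 days from 48 hours after transduction, so vector and drug are common to them. All samples come from 1 cell line, and how many hairpins were used is not given in the sources used here. Labels call the samples biological replicates without naming separate cultures, so p-values measure the spread between these samples. The comparison asks which transcripts differ when CSF2 is targeted.

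S100 proteins are small calcium sensors of the EF-hand type that mostly work as dimers, change shape when calcium binds and then attach to partner proteins. Some act inside the cell on the cytoskeleton, and some are released and signal through receptors such as RAGE and TLR4. Annexins bind acidic phospholipids when calcium rises, organise membranes and take part in membrane repair, exocytosis and the control of inflammation. The families meet in complexes, among them annexin A2 with S100A10 and annexin A1 with S100A11. In papillary thyroid carcinoma, S100 proteins such as S100A4 and the annexin ANXA1 have been studied as markers of the tumour cells.

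The median value of an array was 5.77 to 5.79 (log2), and arrays correlated across probe sets with r of at least 0.998 within groups and 0.994 between them, where probe sets are not independent replicates. With 3 arrays a group, precision is limited by that number. The annotation pairs no probe set with CSF2, so the knockdown itself was not checked on these arrays. The thyroid transcription factor genes PAX8 and NKX2-1 and the keratin genes KRT8 and KRT18 gave strong signal. NKX2-1 (9.37 against 9.78) and KRT8 (10.17 against 10.42) were lower in shCSF2. The thyroglobulin gene TG, TSHR and SLC5A5 lay below 5 in both groups. The other epithelial markers listed were dim, with EPCAM at 5.64 in shCSF2 and 5.73 in shCtrl cells. KRT19 (4.13 against 4.04) and CDH1 (3.62 against 3.52) were lower still. Of 21 measured markers of leukocytes, fibroblasts, endothelium, keratinocytes and melanocytes, 0 were higher by the limma test, also at an unadjusted p under 0.05. Lower were 2 (COL1A1 and KRT10), and 3 at an unadjusted p under 0.05. Thus 9.52% of these markers passed, against 32.7% of all genes. Only 6 of the 21 had a higher-group mean of 6 or more (log2). The difference between the 3' and 5' control probe sets of GAPDH, a measure of RNA integrity, lay between -0.02 and 0.0021 in shCSF2 and between -0.05 and -0.03 in shCtrl arrays (exact two-sided permutation p = 0.1, the smallest that 3 against 3 arrays allow). For ACTB it overlapped, from 0.57 to 0.66 against 0.54 to 0.63 (exact p = 0.6). The part of RNA integrity in the changes below was not tested.

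Changes in both families were small and, where they passed the test, almost all upward. Of the 20 S100 genes, 5 rose (S100A2, S100A4, S100A10, S100A16 and S100A3), 1 fell (S100P) and 14 did not pass (limma, adjusted p under 0.05 over all genes). Of the 12 annexin genes, 4 rose (ANXA1, ANXA3, ANXA5 and ANXA10), 0 fell and 8 did not pass. At an unadjusted p under 0.05, 2 annexin genes were lower. The share that passed was 30% of S100 genes and 33.3% of annexin genes, against 32.7% of all genes, so passing as such was about as common as on the array as a whole. By direction, 28.1% of the 32 family members were higher and 3.12% lower, against 16.7% and 16.0% of all genes. The median log2 fold change (shCSF2 minus shCtrl throughout) was 0.02 for the S100 and -0.00 for the annexin genes, beside -0.03 over all genes. The arrays of the groups did not overlap for 8 S100 and 7 annexin genes, against 46.7% of all genes.

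**Figure D1:**
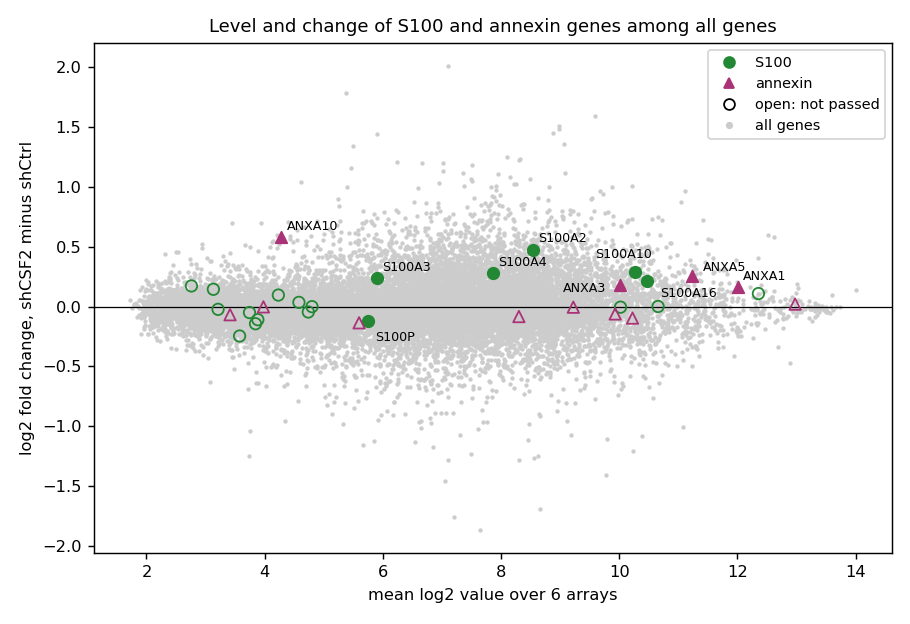
Each point is a gene, with its mean log2 value over 6 arrays on the x axis and its log2 fold change (shCSF2 minus shCtrl) on the y axis; S100 genes are circles, annexin genes triangles, filled where they passed, and all other genes are grey. Among the members that passed, S100A2 has a change of 0.48, and ANXA10 one of 0.58 at a low value.

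The 5 S100 genes that rose all lie in the S100 gene cluster of chromosome 1, as do 16 of the 20 measured S100 genes. The 4 genes elsewhere all had group means below 6 (log2), so the shared location by itself says little. S100A2, a mainly nuclear member found in epithelial cells, rose most of the S100 genes. Its log2 values were 8.76, 8.80 and 8.78 on the shCSF2 arrays and 8.29, 8.34 and 8.27 on the shCtrl arrays. All shCSF2 arrays lay above all shCtrl arrays, and the SD was 0.02 and 0.04. The rise was 1.39-fold (log2 fold change 0.48 ± 0.04, SE, n = 3 per group, adjusted p = 0.000154).

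S100A4, which binds non-muscle myosin and is known for its part in cell motility, had log2 values of 7.99, 8.0 and 8.02 in shCSF2 and 7.74, 7.70 and 7.72 in shCtrl cells. The groups were apart on every array. The rise was 1.22-fold (0.28 ± 0.03, adjusted p = 0.000797), and each of its 3 probe sets passed in the same direction.

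S100A10, the partner of annexin A2 and the S100 protein that no longer responds to calcium, had log2 values of 10.39, 10.42 and 10.40 in shCSF2 and 10.09, 10.16 and 10.11 in shCtrl cells. Again no array of the one group reached the other. The rise was 1.22-fold (0.28 ± 0.03, adjusted p = 0.00103), with both probe sets higher.

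S100A16, a widely expressed member, gave 10.55, 10.63 and 10.57 in shCSF2 and 10.36, 10.35 and 10.38 in shCtrl cells, a rise of 1.16-fold (0.22 ± 0.04, adjusted p = 0.00373) seen by both probe sets. The groups did not overlap. S100A3, known from the hair cuticle, gave lower signal, with 5.89, 6.10 and 6.05 in shCSF2 and 5.77, 5.72 and 5.84 in shCtrl cells. The lowest shCSF2 array was only just above the highest shCtrl array. Its rise of 1.18-fold (0.23 ± 0.06, adjusted p = 0.0286) no longer passed in 4 of the 6 fits with an array omitted. Without shCSF2 replicate 2 it was 0.19, without shCSF2 replicate 3 0.21, without shCtrl replicate 1 0.23 and without shCtrl replicate 2 0.21, with adjusted p between 0.0778 and 0.0881.

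**Figure D2:**
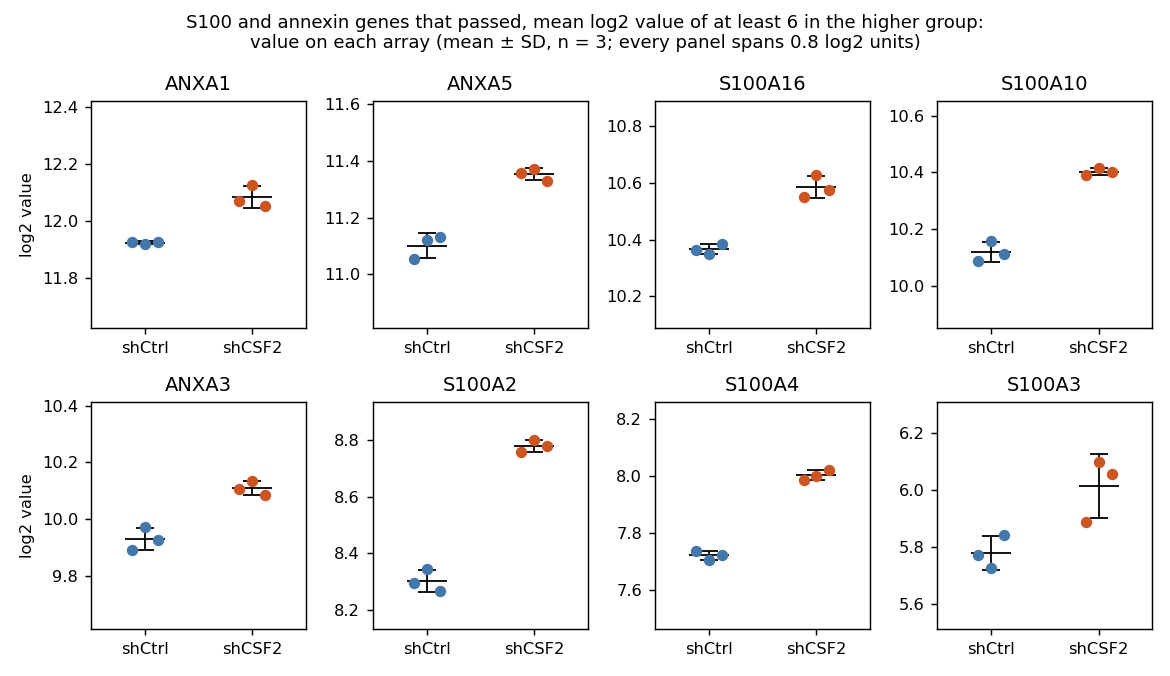
Each panel shows 1 S100 or annexin gene that passed the test with a higher-group mean of 6 or more (log2), with the log2 value on the y axis, 1 point per array, a line for the mean and bars for the SD (n = 3). In all 8 panels every shCSF2 point lies above every shCtrl point, with the widest gap for S100A2 and the narrowest for S100A3.

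S100A2, S100A4 and S100A10 all rose, and all lie in the S100 gene cluster of chromosome 1, at ranks 59, 57 and 1 in gene order. Whether their changes are linked was not tested. The sequences upstream of these 3 genes are shown so that their promoters can be set side by side. They are the 250 bases before the RefSeq start (GRCh38.p14), read on the gene's strand from 5′ to 3′, with matches to the searched motifs in capitals. S100A2 lies at chr1:153565845-153566094, S100A4 at chr1:153545807-153546056 and S100A10 at chr1:151993860-151994109, all on the minus strand. For S100A2 the table lists 2 starts, of which the first is used.
S100A2: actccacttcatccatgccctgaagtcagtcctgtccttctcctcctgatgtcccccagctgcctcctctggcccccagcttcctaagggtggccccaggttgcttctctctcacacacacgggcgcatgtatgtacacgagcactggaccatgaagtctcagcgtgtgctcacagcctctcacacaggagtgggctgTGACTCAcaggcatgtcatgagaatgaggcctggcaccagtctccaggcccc
S100A4: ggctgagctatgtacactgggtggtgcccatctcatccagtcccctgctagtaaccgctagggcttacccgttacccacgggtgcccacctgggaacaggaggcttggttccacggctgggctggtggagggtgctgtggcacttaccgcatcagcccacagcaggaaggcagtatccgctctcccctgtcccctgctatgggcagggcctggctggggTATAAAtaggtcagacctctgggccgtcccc
S100A10: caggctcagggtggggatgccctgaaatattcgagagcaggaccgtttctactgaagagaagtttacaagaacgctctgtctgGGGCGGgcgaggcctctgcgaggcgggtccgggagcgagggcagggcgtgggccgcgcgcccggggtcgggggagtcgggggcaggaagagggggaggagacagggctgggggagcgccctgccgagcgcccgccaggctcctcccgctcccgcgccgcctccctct
The capitals in S100A2 are an AP-1 match (TGANTCA) between 52 and 46 bases before the start. Those in S100A4 are a TATA box match (TATAAA) between 31 and 26 bases before the start, and those in S100A10 are a GC box match (GGGCGG) between 167 and 162 bases before it. The letters upstream of these 3 genes thus share no searched motif. S100A3 also held an AP-1 match, between 225 and 219 bases before its start, and a GC box match, and S100A16 held none of the motifs.

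Other S100 genes with strong signal did not pass. S100A6, or calcyclin, had log2 values of 12.38, 12.44 and 12.40 in shCSF2 and 12.27, 12.31 and 12.32 in shCtrl cells. Its groups did not overlap, but the difference of 0.11 ± 0.04 had an adjusted p of 0.0539, and under the alternative settings the adjusted p ranged from 0.000225 to 0.151. It passed in 6 of the 11 alternatives that kept all arrays and in 0 of the 6 fits with an array omitted. S100A11, which binds annexin A1, was 10.61, 10.71 and 10.65 against 10.63, 10.67 and 10.67, with overlapping arrays. Its difference of 0.00 had a 95% interval of -0.09 to 0.09. S100A13, known for the release of FGF1 from cells, was 9.98, 10.04 and 10.04 against 10.01, 10.02 and 10.05, also overlapping, with an interval of -0.09 to 0.08. The intervals of S100A11 and S100A13 thus do not reach the changes fitted for S100A2, S100A4, S100A10 or S100A16, although the differences between genes were not tested.

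The secreted alarmins of neutrophils and skin had mean log2 values below 5 in shCSF2 and shCtrl cells alike. The calprotectin gene S100A8 was 3.55, 3.18 and 3.63 in shCSF2 and 3.74, 3.67 and 3.69 in shCtrl cells, lower on each array but not past the test (-0.25 ± 0.11, adjusted p = 0.14). Its partner S100A9 was 2.69, 2.86 and 2.99 against 2.68, 2.56 and 2.78, overlapping between groups (0.17 ± 0.09, adjusted p = 0.176). S100A12 (-0.11 ± 0.05; -0.16 and lower by the test without shCSF2 replicate 1), the psoriasin gene S100A7 (-0.14 ± 0.13) and S100A7A (0.03 ± 0.10) did not pass with all arrays. S100A7 and S100A7A are near-identical copies, and probe sets paired with both were not used.

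A further 6 S100 genes are known from other tissues, and their mean log2 values lay below 5 in both groups. They were the heart muscle gene S100A1, S100A5, the glial gene S100B, the epithelial gene S100A14, S100Z and the intestinal calcium carrier gene S100G. None of these 6 passed with all arrays, with log2 fold changes between -0.05 (S100Z) and 0.14 (S100G). Without shCtrl replicate 3, S100G was at 0.24 and passed (adjusted p = 0.0226), but its mean log2 values were low, 3.20 in shCSF2 and 3.06 in shCtrl cells. S100P, a RAGE ligand that also binds ezrin, was 5.71, 5.67 and 5.69 in shCSF2 and 5.81, 5.82 and 5.80 in shCtrl cells. It was lower on every shCSF2 array and fell 1.09-fold (-0.12 ± 0.03, adjusted p = 0.0246). S100P passed without shCSF2 replicate 1 but not without any other single array (-0.13 to -0.11, adjusted p between 0.0547 and 0.0713). Its adjusted p was also 0.111 with a variance trend, 0.0673 with the most variable probe sets and 0.0583 with the replicate number as a block.

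**Figure D3:**
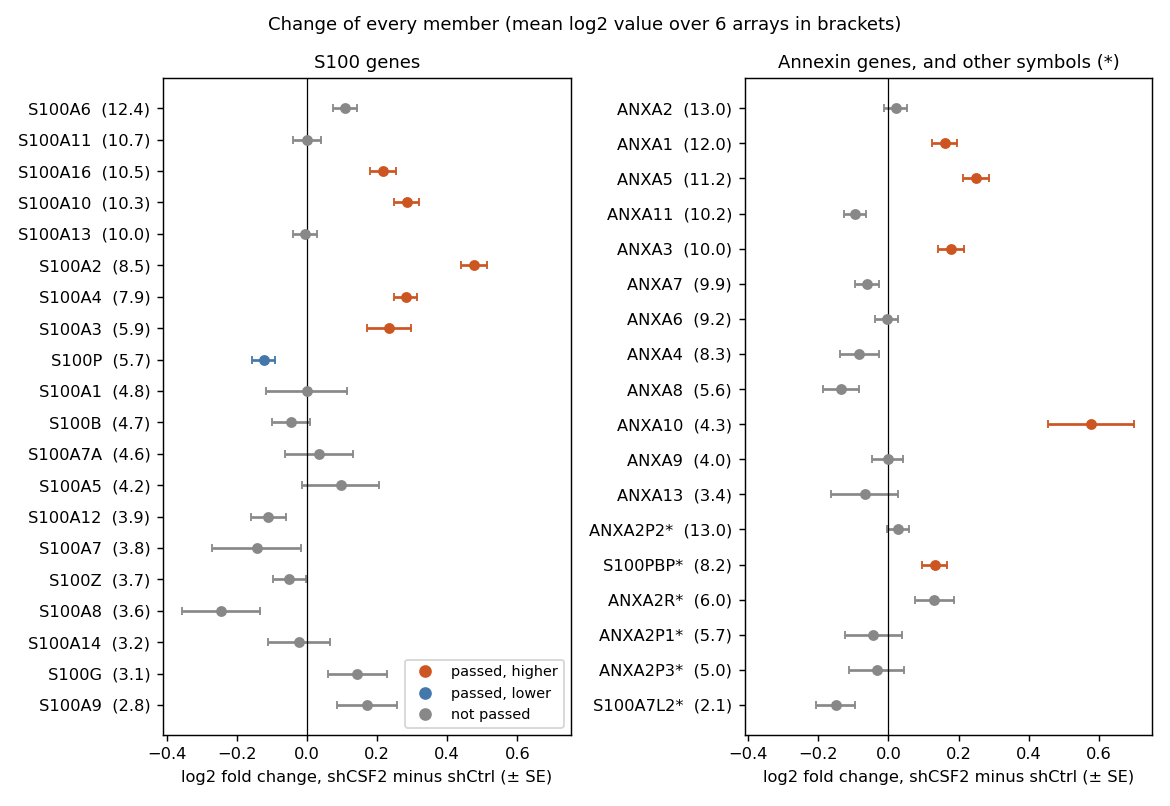
Log2 fold change (x axis, shCSF2 minus shCtrl, bars ± SE) of all 38 members, with S100 genes on the left and annexin genes on the right, the 6 other symbols marked by asterisks. Genes that passed and were higher are orange, the gene that passed and was lower (S100P) is blue, and wide bars are mainly those of genes with low values.

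Among the annexins, ANXA5, which binds phosphatidylserine and is used to stain dying cells, rose 1.19-fold (0.25 ± 0.04, adjusted p = 0.00228). Its log2 values were 11.36, 11.37 and 11.33 in shCSF2 and 11.05, 11.12 and 11.13 in shCtrl cells, with no overlap. ANXA1, a glucocorticoid-induced protein that dampens inflammation through formyl peptide receptors, was 12.07, 12.13 and 12.05 against 11.92, 11.92 and 11.93. Every shCSF2 array was higher, by a rise of 1.12-fold (0.16 ± 0.04, adjusted p = 0.0123). ANXA1 lost its call with all probe sets averaged (0.09, adjusted p = 0.0601), and its most variable probe set gave -0.15 (adjusted p = 0.187, not passed), a probe set with mean log2 values of 3.57 in shCSF2 and 3.72 in shCtrl cells.

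ANXA3 was 10.11, 10.14 and 10.08 in shCSF2 and 9.89, 9.97 and 9.93 in shCtrl cells. The groups did not overlap, and the rise was 1.13-fold (0.18 ± 0.04, adjusted p = 0.00957). By its other probe set, which is used where the most variable one is taken or where probe sets marked as cross-hybridising are left out, the change was 0.16 and did not pass (adjusted p = 0.141 and 0.125). ANXA10, an annexin best known from stomach lining, had a fitted change of 0.58 ± 0.12 (adjusted p = 0.0105). Its values were low, with 4.43, 4.74 and 4.53 in shCSF2 and 4.06, 3.75 and 4.16 in shCtrl cells, so that the groups were apart but the spread within each was wide. It had 1 probe set, which was not shown to be above background, so no fold is given.

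ANXA2, which with S100A10 forms a complex at the inner face of the plasma membrane, was 12.97, 13.00 and 12.99 in shCSF2 and 12.95, 12.96 and 12.98 in shCtrl cells. The groups overlapped, and none of its 6 probe sets passed. The difference of 0.02 ± 0.03 had a 95% interval of -0.06 to 0.10, whereas the interval for S100A10 was 0.20 to 0.37. The difference between the genes was not tested. The pseudogene ANXA2P2 was nearly as bright (12.98 in shCSF2 and 12.95 in shCtrl cells), and its transcripts and those of ANXA2 cannot be told apart with confidence. The dimmer pseudogenes ANXA2P1 (-0.04 ± 0.08) and ANXA2P3 (-0.03 ± 0.08) did not pass.

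The upstream sequences of ANXA1 and ANXA2 are given as an annexin that rose and an annexin whose groups overlapped. They are shown as above, ANXA1 at chr9:73151615-73151864 on the plus strand and ANXA2 at chr15:60397987-60398236 on the minus strand.
ANXA1: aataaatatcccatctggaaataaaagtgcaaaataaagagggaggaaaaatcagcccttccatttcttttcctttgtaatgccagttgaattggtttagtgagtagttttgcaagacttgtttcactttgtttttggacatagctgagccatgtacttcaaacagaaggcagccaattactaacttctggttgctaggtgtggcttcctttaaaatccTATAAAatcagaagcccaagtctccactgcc
ANXA2: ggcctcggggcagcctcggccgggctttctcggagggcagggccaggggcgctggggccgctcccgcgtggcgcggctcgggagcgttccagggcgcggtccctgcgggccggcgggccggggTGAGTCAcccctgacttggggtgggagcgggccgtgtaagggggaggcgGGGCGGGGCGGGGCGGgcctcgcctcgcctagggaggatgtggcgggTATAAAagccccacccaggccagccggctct
The TATA box match lies between 31 and 26 bases before the start in both genes, as in S100A4. ANXA2 also holds an AP-1 match between 127 and 121 bases before the start and 3 overlapping GC box matches.

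Of the 31 members that RefSeq's promoter table lists, 12 (38.7%) had a TATA box match in these 250 bases, against 10.7% of the 35116 promoters of the same length. An AP-1 match was found in 5 of the 31 (16.1%, against 6.57%), a GC box match in 11 (35.5%, against 42.6%) and a match to the cyclic AMP response element (TGACGNCA) in 0 (against 3.06%). Motifs were searched on both strands and counted at any position. Each member counts by the first start listed, whereas all listed starts of a gene count among the 35116. The shares are thus not of like units. Of the 11 members that passed the test, all of them listed, 4 held a TATA box match and 3 an AP-1 match. These are matches of letters and not shown to be bound.

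The other annexins did not pass by the probe set used. ANXA11, which tethers RNA granules to lysosomes and acts in cell division, was 10.17, 10.19 and 10.18 in shCSF2 and 10.27, 10.26 and 10.29 in shCtrl cells. It was lower on every shCSF2 array, and the difference of -0.10 ± 0.03 had an adjusted p of 0.0569. It passed in 6 of the 11 alternatives that kept all arrays, among them the mean of all probe sets (-0.12) and the most variable probe set (-0.23), and in 0 of the 6 fits with an array omitted. ANXA7 (-0.06 ± 0.03), ANXA6 (-0.01 ± 0.03), which carries a doubled annexin core, and the gut-type gene ANXA13 (-0.07 ± 0.09) did not pass. ANXA9, whose calcium sites are degenerate, was at 3.98 in both groups. ANXA8 was 5.56, 5.54 and 5.49 against 5.68, 5.74 and 5.57 and did not pass (-0.14 ± 0.05, adjusted p = 0.0839), although it did without shCtrl replicate 3 (-0.18, adjusted p = 0.0279) and with genes below a mean of 5 left out (adjusted p = 0.0408). Its near-identical copy ANXA8L1 was listed only on probe sets shared with other genes and is not analysed here.

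Probe sets of 1 gene gave different answers for ANXA4, an annexin of epithelial membranes. The probe set used was 8.21, 8.19 and 8.38 in shCSF2 and 8.36, 8.30 and 8.37 in shCtrl cells, overlapping between groups (-0.08 ± 0.06, adjusted p = 0.309). Of its 9 probe sets, 2 were higher (0.26 ± 0.04 and 0.22 ± 0.05) and 0 lower by the test over all probe sets, in which 29.7% of probe sets passed. For ANXA5, 5 of 6 probe sets were higher, and for ANXA1, 4 of 5. In both genes the probe set that did not pass was the one with the lowest signal. For ANXA11, 3 of 8 probe sets were lower and 0 higher, with all 8 values below 0.

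**Figure D4:**
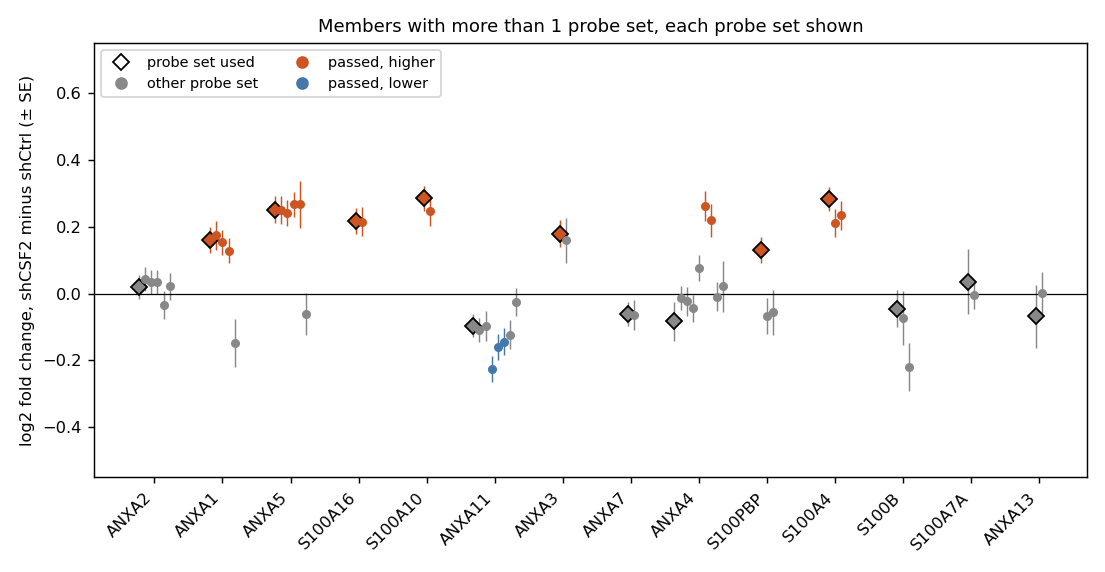
Log2 fold change (y axis, shCSF2 minus shCtrl, bars ± SE) of every probe set of the 14 members with more than 1 probe set; diamonds mark the probe set used, orange probe sets passed and were higher, blue passed and were lower. The probe sets of S100A4, S100A10 and S100A16 are all orange, those of ANXA2 all lie near 0, and those of ANXA4 are spread from -0.08 to 0.26.

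Of the symbols that belong to neither family, S100PBP, which encodes a binding partner of S100P, was 8.27, 8.30 and 8.27 in shCSF2 and 8.18, 8.11 and 8.16 in shCtrl cells. It rose by the probe set used (0.13 ± 0.04, adjusted p = 0.0291), but its other 2 probe sets were at -0.067 and -0.056 and the mean of all was 0.00. It did not pass in any of the 6 fits with an array omitted (0.11 to 0.15, adjusted p between 0.0501 and 0.0867), nor in 4 of the 11 other alternatives. ANXA2R (0.13 ± 0.05) and S100A7L2 (-0.15 ± 0.05) did not pass with all arrays. S100A7L2 passed without shCtrl replicate 1 (-0.20, adjusted p = 0.0321), but its mean log2 values were very low, 2.07 in shCSF2 and 2.22 in shCtrl cells.

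The cluster of S100 genes on chromosome 1 is interrupted by genes of the skin barrier. In RefSeq order, 63 protein-coding genes run from S100A10 to S100A1, of which 16 are S100 genes and 44 of the other 47 were measured. Among the 16, 5 rose and 0 fell (31.2% passed, against 32.7% of all genes), with a median of 0.07. None was lower at an unadjusted p under 0.05 either. Among the other 44, 2 rose and 3 fell (11.4% passed), with a median of -0.07. Only 11 of these 44 had a higher-group mean of 6 or more, against 8 of the 16 S100 genes and 9994 of all 18132 genes, so the shares are not set against each other. S100A4, S100A3, S100A2 and S100A16, of ranks 57 to 60, follow each other without a gap and all rose. This run was picked out after the values were seen, and S100A3 no longer passed in 4 of the 6 fits with an array omitted. Before the run, S100A6 (0.11 ± 0.04) and S100A5 (0.10 ± 0.11), of ranks 55 and 56, did not pass. After it, S100A14, S100A13 and S100A1, of ranks 61 to 63, were between -0.02 and -0.00 and did not pass. Of these, S100A14 and S100A1 had means below 5 (log2) in both groups, where a change could be missed. Only S100A13 had a mean of 6 or more, so an end of the rise at this point is not shown. S100A10, the first gene of the run, rose while its neighbour S100A11 did not pass. The genes between S100A11 and S100A9 that passed were the small proline-rich genes SPRR2D (0.69 ± 0.05) and SPRR2A (0.31 ± 0.08), which rose, and SPRR1A (-0.30 ± 0.07), KPRP (-0.14 ± 0.04) and KPLCE (-0.19 ± 0.03), which fell. They are named after their values were seen, and the SPRR2 genes are near-identical copies that can share probes.

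**Figure D5:**
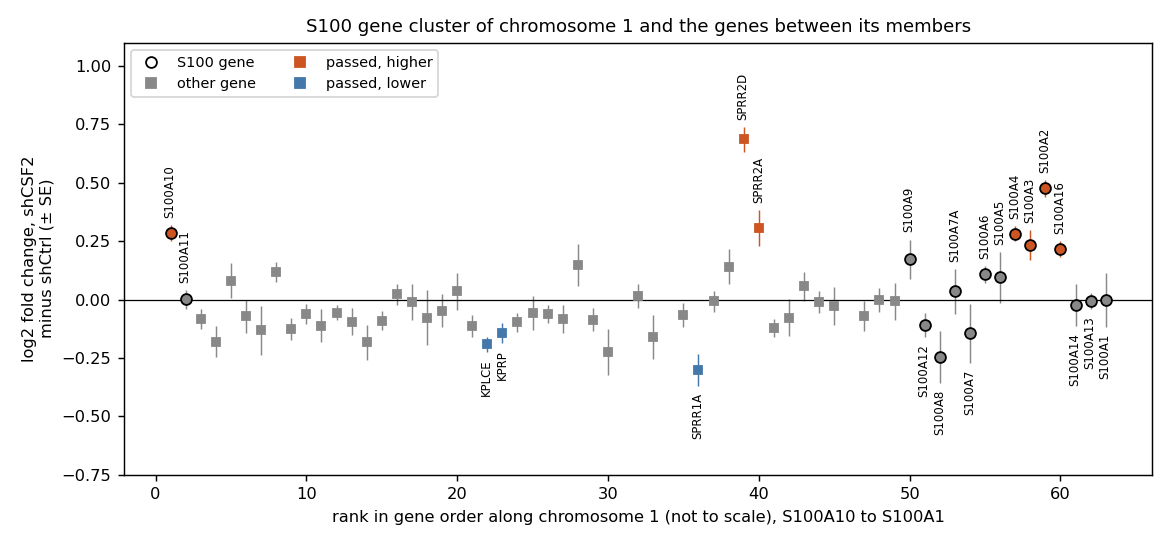
Log2 fold change (y axis, shCSF2 minus shCtrl, bars ± SE) of the measured genes between S100A10 and S100A1 in their order on chromosome 1 (x axis, rank from 1 to 63, not to scale); S100 genes are outlined circles, other genes squares. The run of S100A4, S100A3, S100A2 and S100A16 near the right end is orange, and most of the skin barrier genes are grey.

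Receptors of released S100 proteins and of annexin A1 were measured as a list of 10, of which 1 rose and 4 fell (10% and 40%, against 16.7% and 16.0% of all genes; median -0.14). The toll-like receptor gene TLR4, a receptor for S100A8 and S100A9, was 5.92, 6.10 and 6.08 in shCSF2 and 4.87, 4.87 and 4.90 in shCtrl cells by the probe set used. That probe set was 2.22-fold higher (1.15 ± 0.05, adjusted p = 3.52e-05), but of the 2 others 1 was lower (-0.30 ± 0.05) and 1 did not pass (0.08 ± 0.06), so the direction of TLR4 is uncertain. The adhesion receptor gene ALCAM (-0.22 ± 0.03), the neuroplastin gene NPTN (-0.18 ± 0.04) and the basigin gene BSG (-0.17 ± 0.05), all reported receptors of S100A8 or S100A9, fell, ALCAM by 3 of 8 probe sets, NPTN by all 5 and BSG by 5 of 6. The RAGE gene AGER, named for its role, was lower by the probe set used (-0.14 ± 0.04), at 5.98 in shCSF2 and 6.11 in shCtrl cells, yet across all probe sets 0 of its 10 passed. The formyl peptide receptor genes FPR1, FPR2 and FPR3 had mean log2 values below 4 in both groups and did not pass. Nor did the listed genes MCAM (0.02 ± 0.03, at 7.91 in shCSF2 and 7.89 in shCtrl cells) and CD36 (-0.19 ± 0.11, at 2.84 and 3.03).

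Among 22 measured intracellular and plasmin-system partners, 8 rose and 5 fell (36.4% and 22.7%), with a median of -0.01. Over all genes 16.7% were higher and 16.0% lower. The list was brighter, with a higher-group mean of 6 or more (log2) in 18 of the 22, against 9994 of all 18132 genes. Of the 18, 8 rose and 4 fell, and of the 9994, 2735 were higher and 2226 lower. The shares over all genes are thus not for genes of like signal. The urokinase gene PLAU (0.44 ± 0.03) and the ezrin gene EZR (0.42 ± 0.03) rose, with all their probe sets higher. The tissue plasminogen activator gene PLAT (0.38 ± 0.03) and the urokinase receptor gene PLAUR (0.35 ± 0.04) rose as well; S100A10 is known as a plasminogen receptor on which these activators work. The cathepsin gene CTSB (-0.41 ± 0.03) and the phospholipase gene PLA2G4A (-0.48 ± 0.04), whose enzyme annexins and S100A10 can bind, fell. AHNAK, the large scaffold that binds the S100A10 and annexin A2 complex, rose (0.12 ± 0.03). The calcyclin-binding protein gene CACYBP also rose (0.20 ± 0.04), but by 2 of its 5 probe sets and by 0.10 with all averaged. The myosin gene MYH9, the target of S100A4, fell (-0.18 ± 0.03). SUGT1 (0.22 ± 0.07), MDM2 (0.21 ± 0.04), DLG5 (-0.21 ± 0.04) and the plasminogen gene PLG (-0.20 ± 0.06, below 4 in both groups) passed too. All of these partners but PLAU, EZR, CTSB and PLA2G4A are named after their values were seen.

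Of 18 measured membrane repair genes, 3 rose and 3 fell (16.7% each way, against 16.7% and 16.0% of all genes; median -0.03). This list was brighter, with a higher-group mean of 6 or more (log2) in 15 of the 18, against 9994 of all 18132 genes. Of the 15, 3 rose and 2 fell, and of the 9994, 2735 were higher and 2226 lower. The shares over all genes are thus not for genes of like signal. EHD1 (0.75 ± 0.05), a regulator of membrane recycling, the calpain gene CAPN2 (0.55 ± 0.03) and the ferlin gene MYOF (0.16 ± 0.03) rose, with every probe set of each higher. EHD2, which stabilises caveolae, fell (-0.30 ± 0.04), but by 1 of its 5 probe sets and by 0.10 on the log2 scale with all averaged. Of 24 measured EF-hand genes outside the S100 family, 1 rose and 10 fell (4.17% and 41.7%, against 16.7% and 16.0% of all genes; median -0.14). The largest falls were those of CALU (-0.52 ± 0.03), RCN2 (-0.36 ± 0.05) and NUCB2 (-0.36 ± 0.04), which encode the secretory pathway proteins calumenin, reticulocalbin and nucleobindin, and of CHP1 (-0.33 ± 0.04), which encodes a partner of sodium-proton exchangers. CALU was 9.59, 9.62 and 9.58 in shCSF2 and 10.14, 10.10 and 10.10 in shCtrl cells, with the groups well apart. The gene that rose, named after its value was seen, was HPCAL1 (0.12 ± 0.03).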

How the data were processed

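RNA of 6 BCPAP samples (200 ng each) was measured on Affymetrix PrimeView arrays, per the labels' protocols. The authors deposited log2 values, 1 per probe set and array. Per the submitters' processing notes the tools were RMA, oligo and limma, with no versions. RMA tends to shrink the differences of dim probe sets.

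Of 49395 probe sets, 44988 had 1 symbol in the platform annotation; 7 that pair a member with another gene were not used. Symbols were checked against RefSeq (GRCh38.p14), and 0 changed. Groups come from the titles. A gene took its probe set with the highest mean. limma 3.58.1 (lmFit and eBayes, R 4.3.3) was fitted to all 18132 genes, unfiltered and without a block, and Benjamini-Hochberg adjusted p under 0.05 over all genes counted as passing. All probe sets were fitted separately. The fit was tested on simulated data with known changes. It recovered 60% of log2 effects of 0.3, 82% of 0.5, 98% of 1 and 100% of -1. Of its 179 calls, 9 were false. Changes of 0.3 or less can thus be missed.

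The members and lists were chosen with earlier results of these data known. Array values are given for passing members whose higher group averaged 6 or more (log2) and for others with a family role; from each further list the 4 largest passing changes above that minimum are named. Promoters are RefSeq's 250 bases before the start (31 of 38 members listed). Alternatives were 2 filters on dim genes, 3 normalisations, a variance trend, array weights, 2 other choices of probe set, the replicate number as a block, each array left out and, chosen after seeing the data, no probe sets marked x or s (possible cross-hybridisation).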

Additional observations from a re-analysis of the deposited data

How the results depend on the processing

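S100A2, S100A4, S100A10, S100A16, ANXA5 and ANXA10 kept their direction and their call in every alternative in which they were tested. The number of S100 genes that passed was 5 to 7 over the alternatives with all arrays, and 4 to 7 when 1 array was left out (4 to 6 higher; 2 lower without shCSF2 replicate 1, S100P and S100A12, and 0 lower without any other single array). For annexins it was 3 to 5, and 4 to 5 when 1 array was left out (4 higher; 1 lower, ANXA8, without shCtrl replicate 3 and 0 otherwise). The S100 genes that were lower numbered 0, in place of 1, with the filter at the median over genes, with a variance trend, with the most variable probe set and with the replicate block. The annexins that were lower numbered 2, in place of 0, with the filter at a mean log2 value of 5, and 1 with the filter at the median, cyclic loess, a variance trend, the mean of all probe sets and the most variable probe set. Among genes that passed under either choice, the sign turned with the most variable probe set for ANXA1 (-0.15), ANXA4 (0.26) and S100PBP (-0.056). Genes that passed under neither choice also turned sign under single settings, such as ANXA2 (-0.035, most variable probe set) and ANXA4 (0.045, mean of all probe sets). The cause was not tested.

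The deviations of same-numbered arrays from their group means correlated with r of 0.03, 0.05 and 0.03, against -0.08 to 0.04 for the other pairs. Such low values over all genes do not show a pairing by replicate number, but they cannot exclude one. With the replicate number as a block, 5 S100 genes and 4 annexins passed. Over all genes 32.7% passed as reported, and 64% with the filter at the median over genes, which tests fewer genes. Signal near the low end of the range limits what can be said of the dim members.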
